A study of Mus musculus with 4 samples.

Results

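The 10 genes described here act in, or regulate, the route that takes fatty acids from triglyceride in the blood through the capillary wall and into fat cells: Lpl, Gpihbp1, Cd36, Fabp4, Fabp5, Slc27a1, Acsl1, Meox2, Tcf15 and Vldlr. They were taken by symbol, and all 10 were found among the 32285 genes counted in both single-nucleus RNA libraries. The series profiled nuclei of mature adipocytes enriched by digestion and collection of the floating layer, from WT, naïve C57/BL6 mice on a chow diet. One RNA library came from the thymus of 4-month-old males, with 6 thymi pooled. The other came from epigonadal white adipose tissue of males aged 4 months, and the sources used here do not say how many animals it pooled. Chromatin accessibility was measured in a multiome library from the pooled thymi of 16 females aged 6 months, whose RNA matrix is not analysed here. Every group was therefore 1 library. No difference could be tested between animals, tissue cannot be told apart from library, and all intervals below are 95% intervals that cover counting error only, with unique molecular identifiers (UMIs) or fragments treated as independent.

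In fat and muscle, lipoprotein lipase is made by the parenchymal cell and carried across the capillary endothelium by GPIHBP1, which holds it on the luminal surface while it releases fatty acids from lipoproteins. CD36 takes fatty acids up in both endothelial cells and adipocytes, FABP4 and FABP5 carry them in the cytoplasm, and ACSL1 and FATP1 (the product of Slc27a1) couple uptake to activation as acyl-CoA. Meox2 and Tcf15 encode transcription factors that act as a pair in capillary endothelium, and Vldlr encodes a receptor that binds triglyceride-rich lipoproteins.

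The authors' deposited labels divide the male nuclei into 5 sets. Ad Ia held 35 nuclei in thymus and 106 in epigonadal fat, Ad Ib 49 and 152, Ad IIa 231 and 590, Ad IIb 16 and 58, and Ad IIc 34 and 658. Labelled nuclei held 616557 UMIs in the thymic library and 2276808 in the epigonadal library, and the median nucleus of each label held 442 to 1801.5 and 678.5 to 2313 UMIs. Levels are UMIs summed over a label and scaled to 1000000 nuclear-encoded UMIs of that label (CPM). The libraries shared 147 barcodes, of which 0 were labelled in both and 51 were labelled in 1 library. The remaining 22235 thymic and 3479 epigonadal barcodes carried no label and are given as background, with the barcodes among them that held markers of 1 cell class.

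The labels name all of these nuclei as adipocytes, and the marker genes did not bear that out for Ad IIa and Ad IIb. A difference is called here when at least 10 UMIs stood behind it, the levels differed at least 2-fold and the interval of the log2 ratio lay on 1 side of 0. All 13 endothelial markers were called higher in Ad IIa and Ad IIb together than in Ad Ia and Ad Ib together, in both libraries, with summed levels of 10337 against 1072 CPM in thymus and 8099 against 1167 CPM in epigonadal fat. Of the adipocyte markers, 10 of the 10 with enough UMIs were called lower in thymus (380.4 against 6164 CPM) and 7 of 11 in epigonadal fat (5402 against 9532 CPM). Ad IIa and Ad IIb are therefore called endothelial-like. Macrophage Csf1r and Mrc1 were at 0 UMIs in the thymic endothelial-like nuclei and at 1.45 and 14.5 CPM in the epigonadal ones. The 12 macrophage markers summed to 239 CPM in thymic Ad IIa (2 genes detected) and 629 CPM in Ad IIb (1 gene). They summed to 72.3 CPM in thymic Ad Ia and 366 CPM in Ad Ib. In epigonadal fat the sums were 226 and 369 CPM in Ad IIa and Ad IIb, against 585 and 740 CPM in Ad Ia and Ad Ib. Adiponectin transcript reached 449 CPM in epigonadal Ad IIa, against 453 CPM in epigonadal Ad Ia and 9.96 CPM in thymic Ad IIa, so the epigonadal nuclei carried adipocyte RNA of an origin that was not tested. Thymic Ad Ia held 72.3 CPM of endothelial markers and thymic Ad Ib 2197 CPM. The labels came from clustering of the same nuclei, so the contrasts between labels describe those clusters and do not test them. The marker lists were chosen with earlier results of these data known. None of the 10 genes was among the 10 leading genes of any label, ranked by log2 ratio over the other labelled nuclei. That ranking cannot show whether members shaped the labels, since it held 0 endothelial markers for Ad IIa in either library.

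Promoter sequence was held in the RefSeq table (GRCm38.p6) for 5 of the 10 genes. The 3 promoters printed are those of an acyl-CoA synthetase with the most open start site of the set, of the fatty acid translocase with the most endothelial-like UMIs among genes with a promoter entry, and of the only member whose chromatin was called different between the thymic labels. Each is the 250 bases before the annotated transcript start, read 5′ to 3′ on the gene's strand. Capitals mark GGGCGG in Acsl1 (the letters of a GC box), AGGTCA in Cd36 (the core letters of nuclear receptor elements, here on the other strand as TGACCT) and CANNTG in Meox2 (an E-box).
Acsl1, chr8:46470787-46471036, plus strand: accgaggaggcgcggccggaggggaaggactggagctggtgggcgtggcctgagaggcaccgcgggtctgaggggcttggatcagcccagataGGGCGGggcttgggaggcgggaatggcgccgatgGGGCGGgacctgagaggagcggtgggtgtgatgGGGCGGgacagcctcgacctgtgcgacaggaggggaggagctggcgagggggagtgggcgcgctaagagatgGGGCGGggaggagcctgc
Cd36, chr5:17835897-17836146, minus strand: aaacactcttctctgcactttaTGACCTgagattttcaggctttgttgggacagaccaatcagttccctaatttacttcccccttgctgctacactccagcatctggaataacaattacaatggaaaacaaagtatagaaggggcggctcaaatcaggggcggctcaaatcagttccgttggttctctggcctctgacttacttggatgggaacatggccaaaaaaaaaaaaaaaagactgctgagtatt
Meox2, chr12:37108290-37108539, plus strand: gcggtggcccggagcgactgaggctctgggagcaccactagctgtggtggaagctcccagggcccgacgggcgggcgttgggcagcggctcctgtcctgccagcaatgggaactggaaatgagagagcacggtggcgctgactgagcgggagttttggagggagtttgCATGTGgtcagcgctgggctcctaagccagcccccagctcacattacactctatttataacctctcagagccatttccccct
The Acsl1 stretch held GGGCGG 4 times on either strand and was 72% GC with 20 CpG sites, against medians of 52.4% and 6 over 32851 promoters of equal length. GGGCGG was found in 32.7% of those promoters, AGGTCA in 14.0% and CANNTG in 66.2%, both strands searched. Cd36 held AGGTCA 1 time and Meox2 held CANNTG 1 time. Left in lower case were GGGCGG 2 times and CANNTG 1 time in the Cd36 stretch, and GGGCGG 1 time in the Meox2 stretch. None of these motifs contains another. These matches are descriptions of letters, not of bound sites.

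Over all members, the endothelial-like nuclei and the Ad I nuclei (Ad Ia and Ad Ib together) each held the higher level of some steps of the route. In thymus, Gpihbp1, Cd36, Fabp4, Fabp5 and Meox2 were higher in endothelial-like nuclei, and Lpl, Acsl1 and Slc27a1 were higher in Ad I. This was 5 of 9 measurable members called higher and 3 called lower, where 10.8% of all 6297 measured genes were called higher and 10.5% lower. In epigonadal fat, 6 of 10 were called higher (the same 5 and Tcf15) and 3 lower (Acsl1, Slc27a1 and Vldlr), against 12.2% and 13.1% of 10272 genes. The members were chosen with earlier results of these data known, so these counts are a description and no test. The members' median log2 ratio was 1.60 in thymus and 1.56 in epigonadal fat, beside 0.05 and 0.07 over all measured genes, and the same with genes at 0 UMIs on 1 side set to their bound. RNA content differed alongside. Malat1, Neat1 and Meg3, retained in the nucleus, summed to 73213 and 43975 CPM in thymic Ad Ia and Ad Ib. In Ad IIa and Ad IIb they were at 17823 and 15507. In epigonadal fat this was 44681 and 39700 against 10402 and 12029. Ribosomal protein transcripts were at 10919 and 16394 against 21694 and 20614 CPM in thymus. In epigonadal fat they were at 14276 and 24390 against 35107 and 24982. The part of this in the calls was not tested. Most members were deeper than a minimum of 10 UMIs, and calls depend on depth. Of the 1978 thymic genes with at least 50 UMIs, 30.6% were called higher and 9.30% lower, with a median of 0.48. In epigonadal fat this was 20.8% and 10.4% of 5363 genes, with a median of 0.27. Scaling by edgeR's trimmed mean (TMM) moved the median of all thymic genes to 0.44 and the calls to 16.9% higher and 7.58% lower, and the members were then 6 higher and 3 lower. With every thymic nucleus thinned to 500 UMIs, which kept 42 Ad I nuclei, 2 members were still called higher (Cd36 and Fabp4), and with nuclei of at least 1000 UMIs 3 were (Gpihbp1, Cd36 and Fabp4). In epigonadal nuclei without the other class's markers, which left 30 endothelial-like nuclei, 1 member was called higher (Cd36) and 3 lower (Lpl, Acsl1 and Slc27a1). Gpihbp1, Meox2, Tcf15, Fabp5 and Vldlr fell under the minimum of 10 UMIs there and could not be called, with levels of 87.2 against 8.13, 145 against 8.13, 203 against 0, 87.2 against 24.4 and 29.1 against 40.6 CPM.

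**Figure D1:**
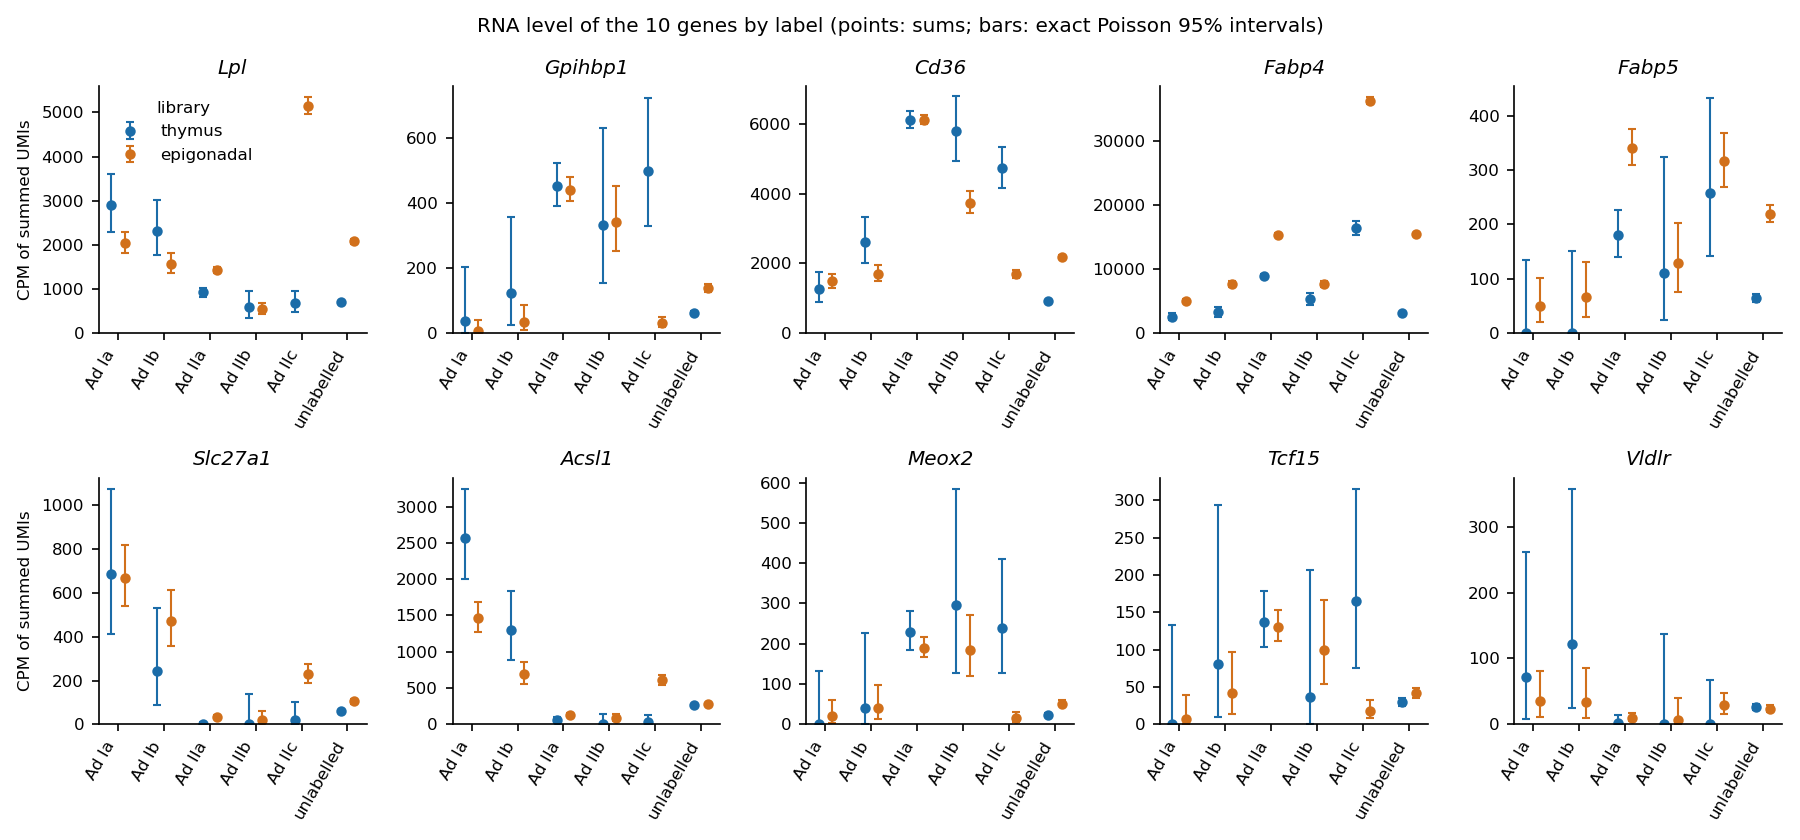
Level of each member in CPM (y axis) for each deposited label and for unlabelled barcodes (x axis) in the thymic and epigonadal RNA libraries; points are summed UMIs of 1 label of 1 library and bars are exact 95% Poisson intervals. In both libraries Gpihbp1, Cd36 and Meox2 stand higher in Ad IIa and Ad IIb than in Ad Ia and Ad Ib, while Acsl1 and Slc27a1 stand lower.

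Lpl encodes lipoprotein lipase itself (chr8:68880555-68906932, GRCm38). Its level in thymus was 2892 CPM in Ad Ia (2293 to 3600) and 2319 CPM in Ad Ib, against 917 CPM in Ad IIa, 592 in Ad IIb, 682 in Ad IIc and 703 in unlabelled barcodes. Both thymic Ad I labels were thus above every other thymic sum, and their intervals did not overlap that of Ad IIa (825 to 1015). In epigonadal fat it was 2033 CPM in Ad Ia and 1572 CPM in Ad Ib, against 1425 CPM in Ad IIa, 533 in Ad IIb, 5149 in Ad IIc and 2073 in unlabelled barcodes. There Ad IIc was the highest and Ad IIb the lowest, and Ad IIa had an interval (1359 to 1493) that overlapped that of Ad Ib (1356 to 1812). The log2 ratio of endothelial-like over Ad I nuclei was -1.55 in thymus (-1.83 to -1.26), called lower. In epigonadal fat it was -0.45 (-0.60 to -0.30), short of the 2-fold limit. The thymic ratio was lower than the epigonadal one by 1.10 log2 units, a difference of -1.10 (-1.42 to -0.78). The adipocyte marker sum differed alongside: it was 5402 CPM in the epigonadal and 380.4 CPM in the thymic endothelial-like nuclei, and its part in the gap was not tested. Among the 30 of 648 epigonadal endothelial-like nuclei that held none of the adipocyte markers, the Lpl level was 639 CPM and its log2 ratio -1.66 (-2.39 to -1.06). Those 30 nuclei also differed in capillary genes, with Gpihbp1 at 87.2 CPM from 3 UMIs against 431 CPM in all 648, and Cd36 at 4070 against 5882 CPM, while Tcf15 was at 203 CPM from 7 UMIs against 128 CPM.

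Gpihbp1 (chr15:75596630-75598213) encodes the anchor and transporter of the lipase, a protein of capillary endothelium. The thymic level was 36.2 CPM in Ad Ia and 122 in Ad Ib, from 1 and 3 UMIs, and 453 in Ad IIa, 333 in Ad IIb, 498 in Ad IIc and 60.8 in unlabelled barcodes. The epigonadal level was 6.96 CPM in Ad Ia and 33.3 CPM in Ad Ib, against 441 CPM in Ad IIa, 341 in Ad IIb, 31.0 in Ad IIc and 138 in unlabelled barcodes. The libraries were close in Ad IIa and Ad IIb and far apart in Ad IIc, which stood with the endothelial-like labels in thymus and with Ad I in epigonadal fat. The log2 ratio of endothelial-like over Ad I was 2.38 in thymus (1.16 to 4.43, from 191 and 4 UMIs) and 4.37 in epigonadal fat (3.28 to 6.14). After thinning to 500 UMIs the thymic ratio was 0.89 (-0.41 to 2.97) and was not called. In the 75 of 84 thymic Ad I nuclei without any endothelial marker, Gpihbp1 had 0 UMIs, with an exact Poisson interval up to 90.2 CPM.

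The lipase and its anchor were also read in single nuclei. Of thymic endothelial-like nuclei, 45.3% held a Gpihbp1 UMI (exact binomial interval 39.0% to 51.8%) and 59.9% an Lpl UMI (53.5% to 66.1%). Of thymic Ad I nuclei, 3.57% held Gpihbp1 (0.743% to 10.1%) and 69.0% held Lpl (58.0% to 78.7%). Depth differed, with a median of 1696 UMIs in Ad IIa against 604 in Ad Ia, so nuclei were thinned to 500 UMIs, which left out 2 of 247 endothelial-like and 42 of 84 Ad I nuclei. The thinned shares were 18.8% and 7.14% for Gpihbp1 and 29.4% and 59.5% for Lpl, so endothelial-like nuclei kept the higher Gpihbp1 share and Ad I nuclei the higher Lpl share. The Gpihbp1 intervals then overlapped (14.1% to 24.2% and 1.5% to 19.5%). In epigonadal fat, before thinning, 80.2% of Ad IIa and 55.2% of Ad IIb nuclei held an Lpl UMI, against 72.5% of Ad I nuclei. After thinning these shares were 43.6%, 25.9% and 53.9%. A UMI of both genes was found in 76 of 247 thymic endothelial-like nuclei (30.8%) and 272 of 648 epigonadal ones (42.0%), against 1 of 84 and 5 of 258 Ad I nuclei. T cell-like barcodes among the unlabelled, which should lack the capillary and adipocyte genes, were taken as background for free RNA. Lpl was 126 CPM in the 1397 thymic and 212 CPM in the 84 epigonadal ones, and Gpihbp1 5.44 and 10.1 CPM, and in thymus 8.80% of them held an Lpl UMI and 0.429% a Gpihbp1 UMI at a median of 817 UMIs. In epigonadal fat 16.7% of them held an Lpl UMI (9.42% to 26.4%) and 1.19% a Gpihbp1 UMI at a median of 1208.5 UMIs. The Lpl level of endothelial-like nuclei was above this background in both libraries. The T cell-like barcodes were chosen to hold fewer markers of every other class, so this background could be too low. For Slc27a1, however, it was above the level of thymic endothelial-like nuclei, at 24.5 against 0 CPM. This background cannot separate Lpl made by endothelial-like nuclei from adipocyte RNA carried with them. Thymic endothelial-like nuclei without any adipocyte marker, 144 of 247, held Lpl at 839 CPM (723 to 969), against 896 CPM in all 247. The origin of the Lpl in endothelial-like nuclei was not tested.

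Cd36 (chr5:17781690-17888959) encodes the fatty acid translocase of both capillary and adipocyte membranes. In thymus it stood at 1265 CPM in Ad Ia and 2604 CPM in Ad Ib, against 6125 CPM in Ad IIa, 5811 in Ad IIb, 4736 in Ad IIc and 920.0 in unlabelled barcodes. The epigonadal levels were 1476 CPM in Ad Ia and 1705 CPM in Ad Ib, against 6125 CPM in Ad IIa, 3744 in Ad IIb, 1678 in Ad IIc and 2186 in unlabelled barcodes. The order was the same at the top: Ad IIa led in both libraries, at nearly one level, and the Ad I labels were low. The log2 ratio of endothelial-like over Ad I was 1.68 (1.40 to 1.99) in thymus and 1.89 (1.75 to 2.04) in epigonadal fat, and the difference between the libraries, -0.21 (-0.54 to 0.11), was within counting error. In thymus Ad Ia was below Ad Ib by a log2 ratio of -1.03 (-1.68 to -0.42), and Ad Ib was the label with more endothelial marker UMIs.

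Slc27a1 (chr8:71568728-71587307), which encodes the fatty acid transport protein FATP1 of adipocytes and muscle, had the opposite pattern. Its thymic level was 687 CPM in Ad Ia and 244 CPM in Ad Ib, against 0 CPM in Ad IIa and Ad IIb, 18.4 in Ad IIc from 1 UMI, and 59.5 in unlabelled barcodes. The epigonadal level was 669 CPM in Ad Ia and 474 CPM in Ad Ib, against 31.5 CPM in Ad IIa, 21.3 in Ad IIb, 231 in Ad IIc and 105 in unlabelled barcodes. With 0 UMIs in 247 thymic endothelial-like nuclei against 25 in 84 Ad I nuclei, the level was at least 68.3-fold lower in the former, taking 3 UMIs over the group as the floor and no counting error of the Ad I side. The interval of the log2 ratio ended at -5.69. The epigonadal log2 ratio was -4.24 (-4.78 to -3.75). The 0 in thymic endothelial-like nuclei was below the 24.5 CPM of thymic T cell-like barcodes.

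**Figure D2:**
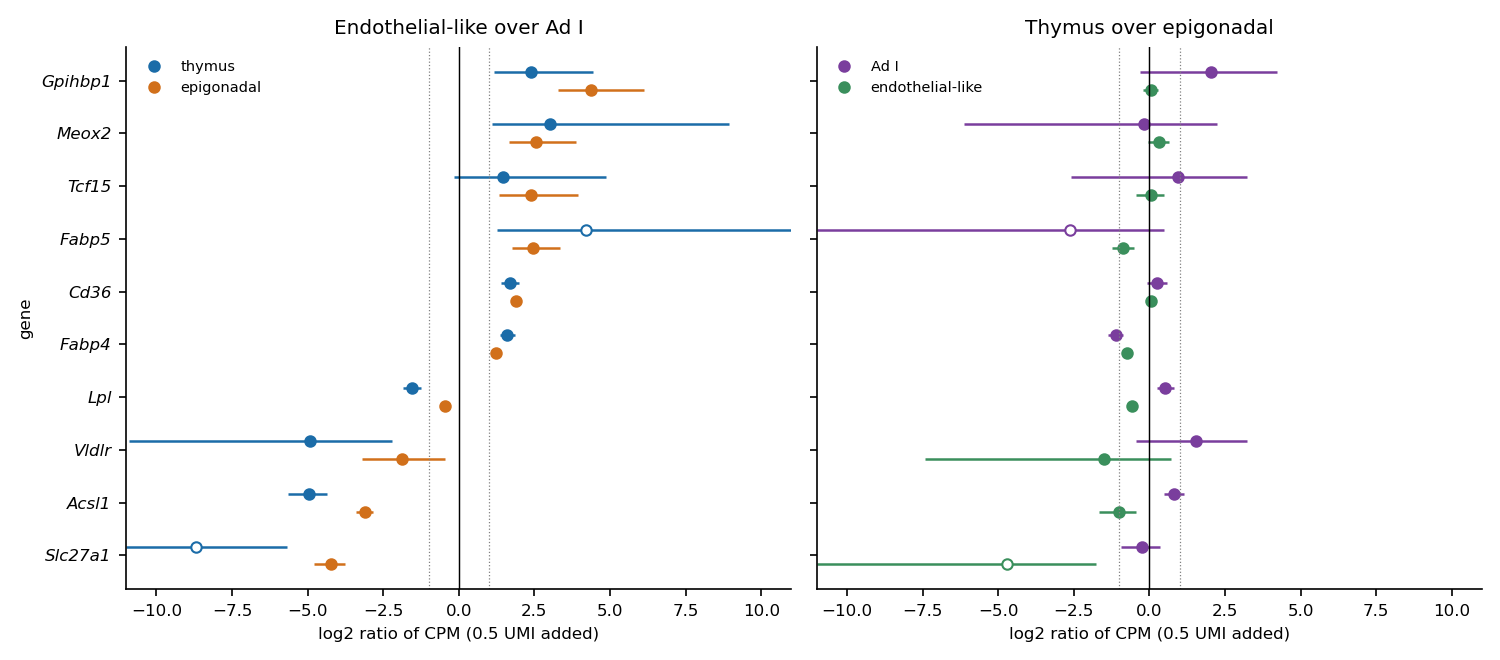
Log2 ratio of levels (x axes) for each member (y axis), of endothelial-like over Ad I nuclei in each library (left panel) and of thymus over epigonadal fat in Ad I and in endothelial-like nuclei (right panel), with exact 95% intervals; open circles mark members with 0 UMIs on 1 side and the dotted lines mark 2-fold. Lpl lies at -1.55 in thymus and at -0.45 in epigonadal fat, while Cd36 lies at 1.68 and 1.89 in the left panel and at 0.05 for endothelial-like nuclei in the right panel.

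Fabp4 (chr3:10204342-10208616), the fatty acid binding protein known from both adipocytes and capillary endothelium, was measured at 2495 CPM in thymic Ad Ia and 3214 CPM in Ad Ib, against 8860 CPM in Ad IIa, 5255 in Ad IIb, 16309.5 in Ad IIc and 3101 in unlabelled barcodes. In epigonadal fat it was 4951 CPM in Ad Ia and 7634 CPM in Ad Ib, against 15308 CPM in Ad IIa, 7631 in Ad IIb, 36251.5 in Ad IIc and 15391.5 in unlabelled barcodes. Ad IIc was the highest label in both libraries, and every epigonadal label was above its thymic namesake. The log2 ratio of endothelial-like over Ad I was 1.60 (1.37 to 1.85) in thymus and 1.23 (1.16 to 1.31) in epigonadal fat. In epigonadal nuclei without the other class's markers the ratio was turned, at -0.45 (-0.71 to -0.20), from 30 endothelial-like nuclei. Free Fabp4 RNA was high in that library, where T cell-like barcodes held 1794 CPM against 438 CPM in thymus.

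Fabp5 (chr3:10012585-10016610) encodes a related carrier that capillary endothelium also makes. It had 0 UMIs in the 84 thymic Ad I nuclei and 179 CPM in Ad IIa, 111 in Ad IIb from 3 UMIs, 258 in Ad IIc and 64.1 in unlabelled barcodes. With the same floor of 3 UMIs and no counting error of the endothelial-like side, it was at least 3.05-fold higher there than in thymic Ad I nuclei (75 against 0 UMIs). The interval of the log2 ratio, which includes that error, began lower, at 1.27. In epigonadal fat it stood at 48.7 CPM in Ad Ia and 66.5 CPM in Ad Ib, against 341 CPM in Ad IIa, 128 in Ad IIb, 316 in Ad IIc and 220 in unlabelled barcodes, with a log2 ratio of 2.44 (1.75 to 3.34). The Ad I labels were the lowest in both libraries.

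Acsl1 (chr8:46471037-46536051), the long-chain acyl-CoA synthetase that traps fatty acids in the adipocyte, overlapped 1 lncRNA gene, Gm31050, whose reads could be counted with it. The thymic level was 2567 CPM in Ad Ia (2005 to 3238) and 1302 CPM in Ad Ib (890.4 to 1838), against 67.3 CPM in Ad IIa, 0 in Ad IIb, 36.9 in Ad IIc from 2 UMIs and 270.3 in unlabelled barcodes. The epigonadal level was 1469 CPM in Ad Ia and 690.2 CPM in Ad Ib, against 133 CPM in Ad IIa, 85.3 in Ad IIb, 610.3 in Ad IIc and 278 in unlabelled barcodes. Ad Ia was highest and Ad Ib next in both libraries, and the log2 ratio of Ad Ia over Ad Ib was 0.97 (0.36 to 1.63) in thymus and 1.08 (0.72 to 1.47) in epigonadal fat. Between endothelial-like and Ad I nuclei it was -4.95 (-5.64 to -4.34) in thymus and -3.12 (-3.39 to -2.84) in epigonadal fat. The thymic level over endothelial-like nuclei, 63.0 CPM (41.5 to 91.7), had an interval that included the T cell-like level of 52.6 CPM.

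The transcription factors Meox2 (chr12:37108540-37179534) and Tcf15 (chr2:152143056-152149097) were low genes with endothelial-like patterns. Meox2 stood at 0 CPM in thymic Ad Ia and 40.7 CPM in Ad Ib from 1 UMI, against 229 CPM in Ad IIa, 296 in Ad IIb, 240 in Ad IIc and 22.6 in unlabelled barcodes. In epigonadal fat it was 20.9 CPM in Ad Ia and 41.6 CPM in Ad Ib, against 190 CPM in Ad IIa, 185 in Ad IIb, 15.5 in Ad IIc and 51.6 in unlabelled barcodes. Its 2 epigonadal endothelial-like labels did not differ beyond counting error (log2 ratio 0.02, -0.55 to 0.68). Endothelial-like over Ad I, the Meox2 log2 ratio was 3.03 in thymus (1.10 to 8.93, from 100 UMIs and 1 UMI) and 2.56 in epigonadal fat (1.64 to 3.87).

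Tcf15 had 0 CPM in thymic Ad Ia and 81.4 CPM in Ad Ib from 2 UMIs, against 137 CPM in Ad IIa, 37.0 in Ad IIb from 1 UMI, 166 in Ad IIc and 29.8 in unlabelled barcodes. Its thymic log2 ratio of 1.46 (-0.15 to 4.85) was not called, since only 2 UMIs lay in Ad I. Epigonadal nuclei had 6.96 CPM in Ad Ia and 41.6 CPM in Ad Ib, against 131 CPM in Ad IIa, 99.5 in Ad IIb, 17.4 in Ad IIc and 41.6 in unlabelled barcodes, with a log2 ratio of 2.38 (1.34 to 3.96). Over endothelial-like nuclei the 2 libraries were close, at 131 CPM in thymus and 128 CPM in epigonadal fat.

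Vldlr (chr19:27216480-27254231), the lipoprotein receptor, was the sparsest member and overlapped the lncRNA gene Gm35438. The thymic library held 2 of its UMIs in Ad Ia, 3 UMIs in Ad Ib, 1 UMI in Ad IIa and 0 in Ad IIb and Ad IIc, too few for a call. In epigonadal fat its level was 34.8 CPM in Ad Ia and 33.3 CPM in Ad Ib, against 9.70 CPM in Ad IIa, 7.11 in Ad IIb, 29.1 in Ad IIc and 23.6 in unlabelled barcodes. Its epigonadal log2 ratio was -1.88 (-3.19 to -0.45) from 13 and 9 UMIs, on the side of Acsl1 and Slc27a1. It was lost from the calls with equal weight per nucleus (-0.85, -2.16 to 0.58), after thinning (-1.04, -3.22 to 1.33), with Ad Ib alone (-1.93, -3.51 to 0.26), with Ad IIb alone and in nuclei without the other class's markers (-0.04, -6.05 to 2.68).

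Unlabelled barcodes gave levels outside the authors' labels. In thymus they held a median of 308 UMIs and 69.3% mitochondrial counts, against 1479 UMIs and 14.7% in labelled nuclei, and in epigonadal fat 794 UMIs and 10.9% against 966 UMIs and 5.19%. Barcodes with at least 3 markers of 1 class and more than of any other were set apart by class, which gave 254 adipocyte-like and 311 endothelial-like barcodes in thymus and 1799 and 212 in epigonadal fat. Of these, 158, 97, 303 and 16 had exactly 3 markers. In thymus Lpl was 2318 CPM in adipocyte-like and 828 in endothelial-like barcodes, and Gpihbp1 was 25.1 and 406 CPM. Acsl1 was 1749 and 97.6 CPM, and Slc27a1 was 535 and 12.6 CPM. Cd36 was 1247 and 5126 CPM. Each of these thymic values lay on the same side as in the labelled nuclei. In epigonadal fat Lpl was 3378 and 1552 CPM, Cd36 1846 and 5732 CPM, and Gpihbp1 77.3 and 472 CPM. Fabp4 was the exception: adipocyte-like barcodes of epigonadal fat held 26292 CPM and endothelial-like ones 15971 CPM. This was the reverse of the order between labelled Ad I and endothelial-like nuclei. It was the order of labelled Ad IIc, with 28601 CPM of adipocyte markers, over the endothelial-like labels. Fabp4 stood there at 36251.5 CPM in Ad IIc, against 15308 in Ad IIa and 7631 in Ad IIb. Fibroblast-like barcodes held 856 CPM of Lpl in thymus and 1010 CPM in epigonadal fat, where macrophage-like barcodes held 1799 CPM. Thymic macrophage-like barcodes held 154 CPM from 4 UMIs, with an interval (42.1 to 395 CPM) that included the T cell-like level. 

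**Figure D3:**
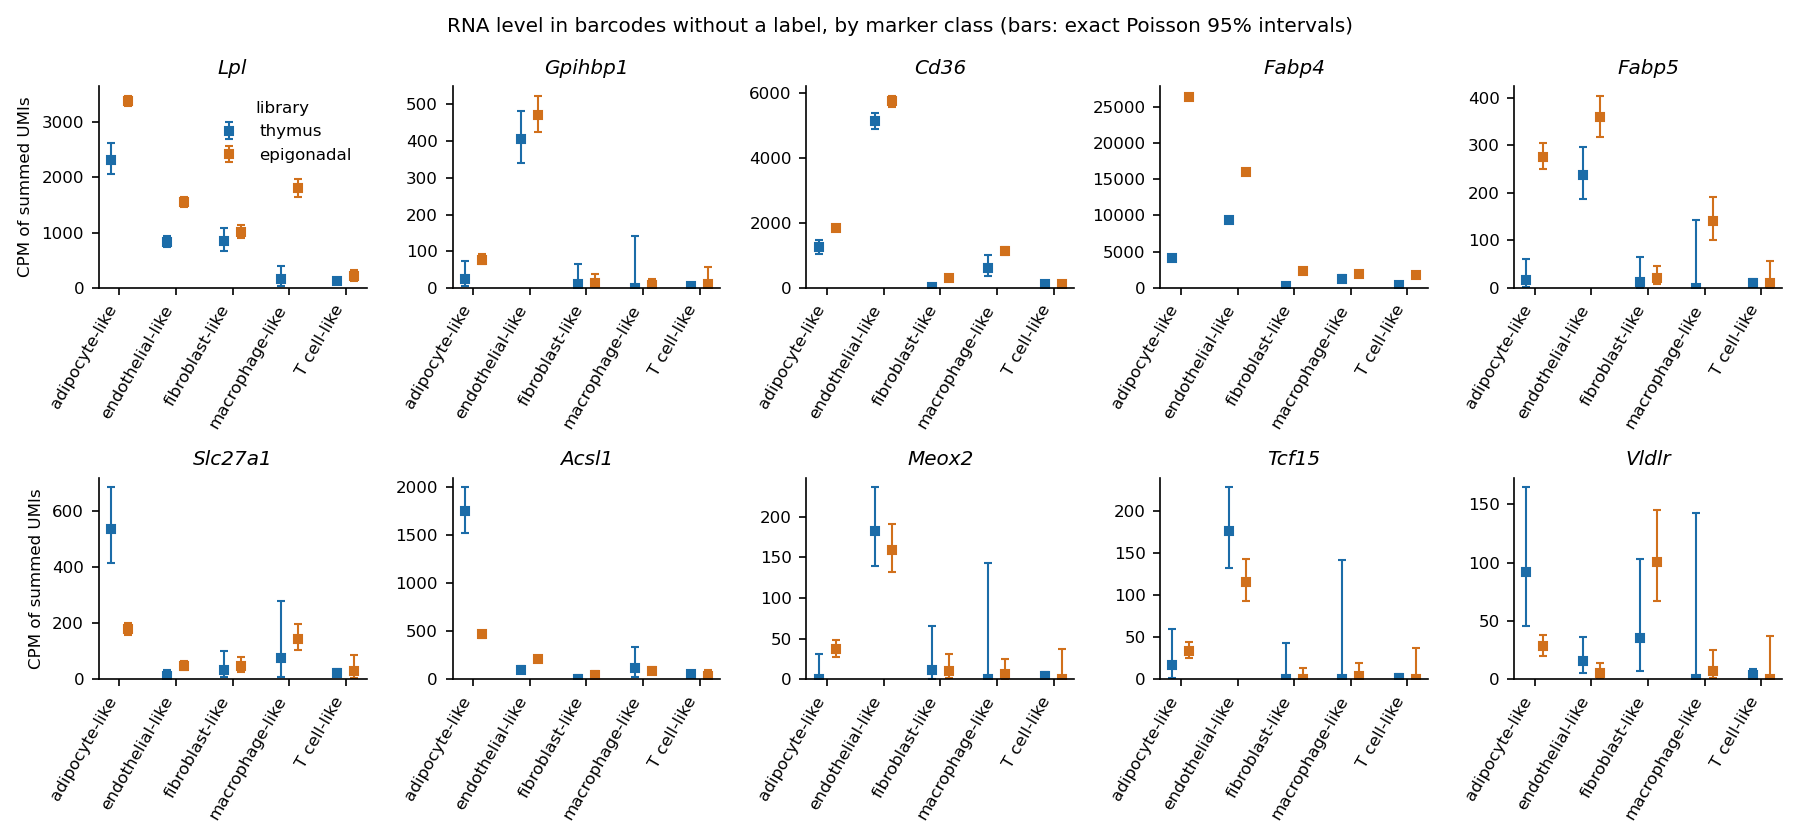
Level of each member in CPM (y axis) in unlabelled barcodes grouped by the markers they held (x axis), for the thymic and epigonadal libraries, with exact 95% Poisson intervals. Gpihbp1 is highest in endothelial-like barcodes (406 CPM in thymus, 472 CPM in epigonadal fat) and Acsl1 in adipocyte-like ones.

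The 2 tissues were compared within labels of the same name. Signs of RNA quality differed between the libraries in those labels: in Ad IIa the median mitochondrial share was 13.3% in thymus and 4.63% in epigonadal fat, ribosomal protein transcripts 21694 and 35107 CPM, and 3 RNAs retained in the nucleus (Neat1, Meg3 and Malat1, summed) 17823 and 10402 CPM. In Ad Ia the mitochondrial share was 15.5% and 3.83%. The part of these in the differences was not tested. Among Ad I nuclei, 1 of 7 measurable members was called lower in thymus and 0 higher, where 5.87% of 5346 genes were called higher and 3.65% lower, with median log2 ratios of 0.27 and 0.08. Fabp4 was the member called, with a log2 ratio of -1.12 (-1.38 to -0.88). It was -0.98 in Ad Ia alone and -0.70 in nuclei of at least 1000 UMIs, neither past 2-fold, and -1.24 in Ad Ib alone. These are nuclei that share a deposited label and not one checked class. The 10 leading genes of epigonadal Ad Ib held the mural marker Pdgfrb, from 18 UMIs, and 0 adipocyte markers. Those of epigonadal Ad Ia also held 0 adipocyte markers. Summed over the lists, epigonadal Ad Ib held 8416 CPM of adipocyte and 391 CPM of mural markers. Lpl had a log2 ratio of 0.53 (0.24 to 0.80) and Acsl1 of 0.83 (0.49 to 1.15), both short of 2-fold. Median-of-ratios scaling moved the median of all genes to -0.44 and the calls to 2.0% higher and 10.7% lower, and 2 members were then called lower.

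Among endothelial-like nuclei, 2 of 10 members were called lower in thymus than in epigonadal fat and 0 higher, where 2.8% of 10039 genes were called higher and 8.94% lower, with median log2 ratios of -0.66 and -0.03. Both members act in the activation of fatty acids in adipocytes. The count called lower was not firm: over 15 alternatives it ran from 0 to 4. Slc27a1, with 0 against 42 UMIs, was at least 4.35-fold lower in thymus against the floor of 3 UMIs, with no counting error of the epigonadal side. Its log2 interval, which includes that error, ended nearer to no difference, at -1.76. Acsl1 had a log2 ratio of -1.01 (-1.67 to -0.44). All 11 adipocyte markers were called lower in the same comparison, and in nuclei without adipocyte markers Slc27a1 had 0 against 1 UMI, under the minimum for a call, and Acsl1 had 12 against 1 UMIs with a log2 ratio of 0.38 (-1.85 to 6.32), not called. Over all endothelial-like nuclei, Gpihbp1, Cd36, Meox2 and Tcf15 did not differ beyond counting error, unlike Fabp4 and Fabp5, also known from capillary endothelium and given below. The log2 ratio was 0.05 (-0.19 to 0.29) for Gpihbp1, 0.05 (-0.01 to 0.12) for Cd36, 0.31 (-0.05 to 0.64) for Meox2 and 0.04 (-0.43 to 0.47) for Tcf15. In nuclei without adipocyte markers, however, Gpihbp1 was called higher in thymus at 2.15 (0.78 to 4.67), from 449 against 87.2 CPM, and Cd36 had 0.56 (0.32 to 0.83). That Gpihbp1 ratio came from 99 UMIs in 144 thymic nuclei and only 3 UMIs in 30 of 648 epigonadal nuclei. Median-of-ratios scaling moved the median of all genes to -0.18. Over all nuclei, Fabp4 at -0.75 (-0.80 to -0.70), Fabp5 at -0.86 (-1.24 to -0.51) and Lpl at -0.57 (-0.74 to -0.41) lay outside counting error but short of 2-fold. Without adipocyte markers these signs turned, to 0.91 (0.68 to 1.16) for Fabp4, 0.82 (-0.63 to 3.36) for Fabp5 and 0.36 (-0.25 to 1.10) for Lpl.

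Within the endothelial-like labels of epigonadal fat, Ad IIa exceeded Ad IIb in Lpl by a log2 ratio of 1.41 (1.09 to 1.77), in Fabp5 by 1.38 (0.74 to 2.18), in Fabp4 by 1.0 (0.92 to 1.09) and in Cd36 by 0.71 (0.58 to 0.84). The summed adipocyte markers were also higher in Ad IIa, at 5715 against 2650.2 CPM, and their part in these differences was not tested. Gpihbp1, at 0.36 (-0.06 to 0.83), did not differ beyond counting error. In thymus, where Ad IIb was 16 nuclei, Fabp4 gave 0.75 (0.51 to 1.01).

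Ad IIc was named alike in both tissues and held different RNA. Its summed endothelial markers were 9528 CPM in thymus and 426 CPM in epigonadal fat, its summed adipocyte markers 792 and 28601 CPM, and 4 of the 10 leading genes of thymic Ad IIc were erythroid. Over Ad I in thymus, where 19.9% of 2285 genes were called higher and 19.1% lower, Lpl had a log2 ratio of -1.93 (-2.51 to -1.41), Gpihbp1 of 2.56 and Cd36 of 1.32. In epigonadal fat, where 19.4% of 8154 genes were called higher and 33.3% lower, Lpl had 1.5 (1.36 to 1.64), Gpihbp1 0.62 and Cd36 0.09, these 2 not called. Fabp4 was called higher in both, at 2.52 and 2.55. Epigonadal Ad IIc held 1829 CPM of the same 3 retained RNAs against 44681 in Ad Ia and 39700.0 in Ad Ib, and 76449 CPM of ribosomal protein transcripts against 14276 and 24390.4. In thymus those RNAs were at 14503 CPM in Ad IIc against 73213 and 43975. Their part in these ratios was not tested.

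Other genes of the route were read from 6 lists, chosen with earlier results of these data known. Of all genes tested, 10.8% were called higher and 10.5% lower in thymus, and 12.2% and 13.1% in epigonadal fat. Of 23 partners of lipoprotein lipolysis, 9 were measurable in thymus, with 2 called higher in endothelial-like nuclei and 3 lower, and a median log2 ratio of -1.02. Hspg2, the heparan sulfate proteoglycan perlecan, was higher at 2.51 and the HDL receptor Scarb1 at 1.30. The lipoprotein receptor Lrp1 (-5.57, 2 against 14 UMIs), the sorting receptor Sort1 (-4.82) and the proprotein convertase Pcsk5 (-3.69) were lower. In epigonadal fat 12 were measurable with 2 higher and 5 lower, the same 5 genes with Lmf1, the factor that matures the lipase (-2.38), and Pcsk6 (-2.46). In thymic over epigonadal endothelial-like nuclei 0 of 12 were called higher and 4 lower, where 2.8% of genes tested were called higher and 8.94% lower, and all 11 adipocyte markers were called lower. They were Angptl4, an inhibitor of the lipase (-2.34), Apoc1 (-2.65), Apoe (-2.39) and Lrp1 (-2.30).

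Of 25 genes of uptake and activation, 11 were measurable in thymus, with 3 higher and 1 lower. The caveolar genes Cav1 (2.49) and Cavin1 (1.56) and the kinase gene Lyn (2.65) were higher, and Dbi, the acyl-CoA binding protein, was lower (-1.23). In epigonadal fat it was 3 higher (Cav1 1.32, Cav2 1.60, Cavin1 1.24) and 1 lower (Acsl3, -1.62) of 13. Of 16 endothelial regulators, 4 of 12 were higher and 2 lower in thymus, and 7 of 15 and 2 in epigonadal fat. The VEGF receptor gene Flt1 was higher in both (2.48 and 2.47) and its ligand gene Vegfa lower in both (-5.84 and -5.42). Pparg, the nuclear receptor that acts in both cell types, was at 2343 against 1417 CPM in thymus, not called, and called higher in epigonadal fat (1.12). Of 7 capillary genes, 6 were called higher in both libraries, among them Car4 (3.46 in thymus), Cd300lg (3.51) and Aqp7 (2.0), with medians of 2.95 and 2.71. Of the measurable arterial genes 1 of 3 in thymus and 4 of 5 in epigonadal fat were called higher, and of the venous genes 1 of 2 and 2 of 5.

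The genes whose log2 levels ran most like those of a member across the 10 sums (5 labels in each of 2 libraries, 4714 genes compared) are given with Pearson's r as a description, since the sums share libraries and depth. For Gpihbp1 they were Egfl7 (0.978), Sec14l1 (0.960) and Tjp1 (0.958), and for Lpl G0s2 (0.946), Prps1 (0.945) and Ndrg2 (0.941). For Meox2 they were Timp3 (0.996), Tpst1 (0.994) and Ushbp1 (0.990). For Fabp4 the nearest were ribosomal protein genes, Rpl10a (0.979), Rpl23a (0.978) and Rps29 (0.969), and ribosomal protein transcripts were most abundant in Ad IIc in both libraries, at 47823 and 76449 CPM.

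Chromatin was read in 317 labelled nuclei of the female thymi, 146 called thyAD I, 140 thyAD II and 31 Immune, with 10105.5, 15057 and 16036 fragments in the median nucleus. Fragments were counted over each gene and 2 kb on either side and scaled to 1000000 fragments of the label (FPM), and a 1.5-fold limit was used. The thyAD labels were not matched to the Ad labels of the RNA. They came from a joint clustering that may have used the same fragments, so contrasts between them describe those clusters and do not test them. Between them 0 of 13 endothelial and 0 of 11 adipocyte markers were called different, and the summed endothelial signal was 289.6 FPM in thyAD I and 290.0 FPM in thyAD II. The markers Cdh5, Tie1, Emcn, Esam and Robo4 each rested on 7 to 17 fragments in a label, and of 15 endothelial regulators Flt1 was called higher in thyAD II (0.66, 0.13 to 1.23) and Apln lower (-0.77, -1.54 to -0.02). Slc27a2 was called lower (-1.03) among 23 genes of uptake and activation, and Vcam1 higher (1.39) among 5 venous genes. None of 23 lipolysis partners, 6 capillary or 7 arterial genes was called. Of 9 members with enough fragments, 1 was called higher in thyAD II and 0 lower, where 3.92% of 27863 genes were called higher and 2.69% lower, with median log2 ratios of -0.05 and 0.02.

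Meox2 was that member, at 5.46 FPM in thyAD I, 15.1 in thyAD II and 8.91 in Immune nuclei, from 9, 33 and 5 fragments. Its log2 ratio of thyAD II over thyAD I was 1.41 (0.37 to 2.71). Of the 2 joint clusters in thyAD II, cluster 4 held 23.0 and cluster 0 held 9.84 FPM, and of those in thyAD I, cluster 1 held 6.23 and cluster 3 held 3.83. The log2 ratio was 1.82 for cluster 4 over 1 and 2.30 for cluster 4 over 3, both called, but 0.61 (-0.77 to 2.23) for cluster 0 over 1 and 1.09 (-0.78 to 4.55) for cluster 0 over 3. The call thus held for cluster 4, with 20 fragments, and not for cluster 0, with 13. Cluster 0 also stood above both thyAD I clusters, within counting error, and was not compared with cluster 4. Near the start that follows the Meox2 sequence printed above, within 500 bp, only 2 and 7 cut sites were seen.

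**Figure D4:**
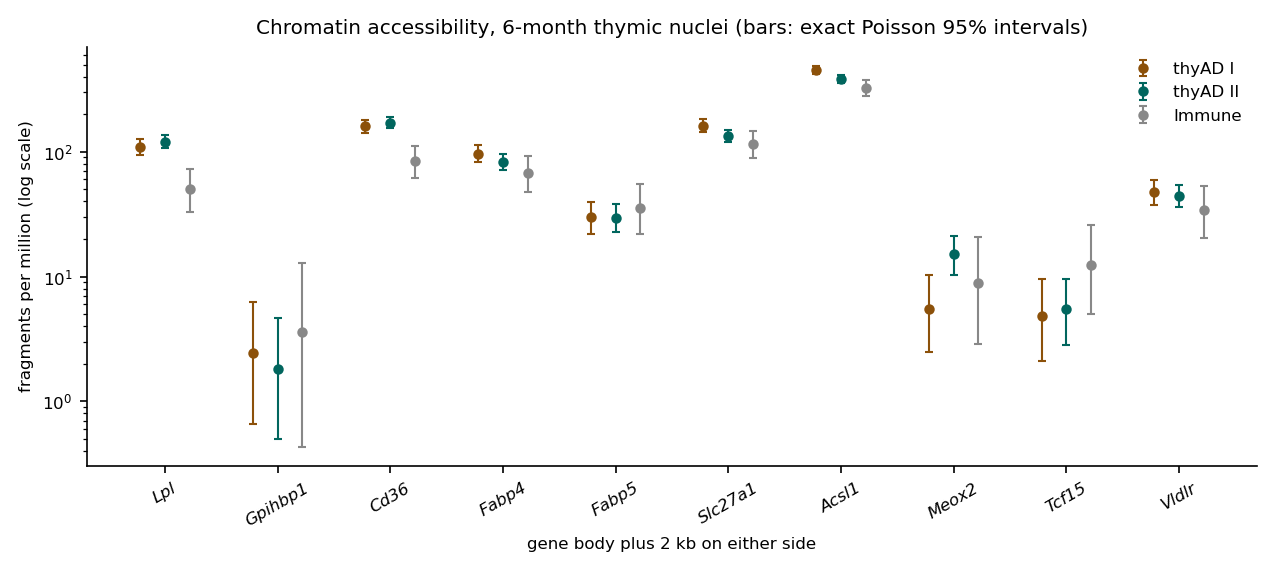
Fragments per label scaled to 1000000 (FPM) over each member's gene body and 2 kb flanks (y axis, log scale) in thyAD I, thyAD II and Immune nuclei of the female thymic library, with exact 95% Poisson intervals. Meox2 differs between thyAD I (5.46) and thyAD II (15.1), from 9 and 33 fragments. The other members lie close together in those 2 labels, except that Gpihbp1 had too few fragments to be read. Tcf15, from 8 and 12 fragments, has wide intervals.

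The remaining members were nearly level between the thyAD labels, apart from Tcf15 and Gpihbp1, which were too sparse to tell. Acsl1 held 452, 382 and 322 FPM in thyAD I, thyAD II and Immune nuclei, a log2 ratio of thyAD II over thyAD I of -0.24 (-0.39 to -0.10). Slc27a1 held 162, 134 and 116, a log2 ratio of -0.27 (-0.51 to -0.02). Both ratios lay outside counting error and short of 1.5-fold. Lpl held 109, 121 and 49.9, Cd36 159.7, 171 and 83.7, and Fabp4 96.5, 82.7 and 67.7. Fabp5 held 29.8, 29.7 and 35.6, Vldlr 47.4, 44.3 and 33.8, and Tcf15 4.86, 5.48 and 12.5. Tcf15 rested on 8 fragments in thyAD I and 12 in thyAD II, with a log2 ratio of 0.15 (-1.24 to 1.67). Gpihbp1 had only 4, 4 and 2 fragments, so its chromatin could not be read at this depth. In Immune over thyAD I nuclei, where 9.26% of 24622 genes were called higher and 8.11% lower, Lpl (-1.10, -1.75 to -0.54) and Cd36 (-0.92, -1.41 to -0.48) were called lower, the 2 members so called.

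The Acsl1 start that follows the printed sequence was the most open start of the members, at percentiles 99.99 and 99.93 of all starts in thyAD I and thyAD II. Within 500 bp of that start, thyAD I nuclei held 110.8 per 1000000 cut sites, thyAD II 75.6 and Immune nuclei 99.8, against a median of 0.911 over promoters in thyAD I and 0.913 in thyAD II. The log2 ratio of thyAD II over thyAD I was -0.55 (-0.77 to -0.33), short of 1.5-fold, where 7.65% of 15356 starts were called higher and 5.86% lower. The second Acsl1 start held 17.9 and 12.3 on this scale, and the 3 Slc27a1 starts held 40.4, 20.9 and 36.4 in thyAD I against 33.3, 20.6 and 32.9 in thyAD II. The Cd36 start that follows the printed sequence held 21.3 and 25.8, a log2 ratio of 0.28 (-0.16 to 0.73). The high Acsl1 signal was therefore shared by Immune nuclei, while the Cd36 start was lower there, at 10.7.

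**Figure D5:**
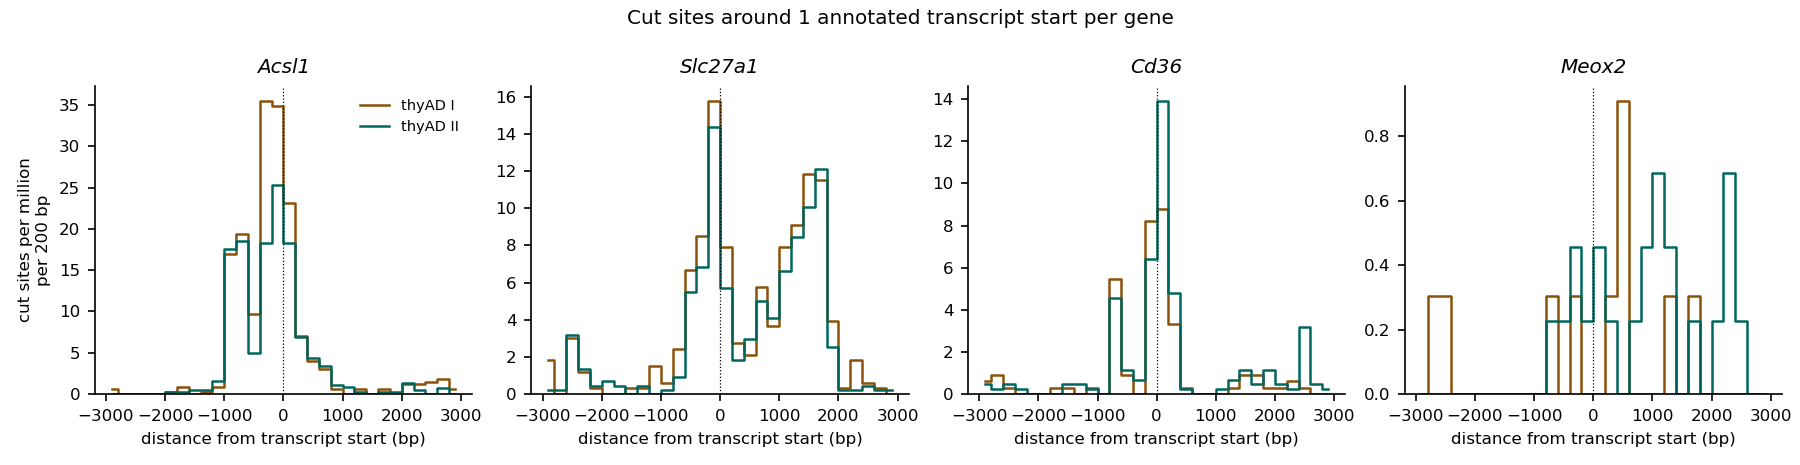
Cut sites scaled to 1000000 in 200-bp bins (y axis) by distance from the transcript start (x axis, up to 3000 bp on either side) for Acsl1, Slc27a1, Cd36 and Meox2 in thyAD I and thyAD II nuclei. The highest Acsl1 bin is centred 100 bp before the start in thyAD II (25.3). In thyAD I it is centred 300 bp before the start (35.5), close to the bin at 100 bp (34.9). Meox2 shows few cut sites in either label.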

How the data were processed

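Raw UMI counts per gene and barcode were deposited by the authors as 10x matrices of 2 RNA libraries, and per the file headers cellranger 7.2.0 had made them. The submitters' processing notes name Cell Ranger ARC 2.0.2, Seurat 5.1.0 and mm10. Nucleus labels, doublet classes and the percent of mitochondrial counts came from the authors' deposited metadata, where all 1929 labelled male nuclei were classed as singlets. The female metadata table broke off inside a row, which left 317 nuclei. Fragment positions (GRCm38, per the file headers) carry deposited counts of reads, and each fragment was taken 1 time.

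UMIs were summed per label and divided by nuclear-encoded UMIs, which excludes mitochondrial genes. Log2 ratios carried a pseudocount of 0.5 UMIs and exact binomial intervals, and levels exact Poisson intervals at 95%. With 1 library a group no p-value was possible. Calls needed 10 UMIs and 2-fold, or 10 fragments and 1.5-fold. Unlabelled barcodes joined a class with 3 of its markers and more than of any other, and 147 barcodes shared by the libraries were kept. The 10 members and the 6 gene and 12 marker lists were chosen with earlier results of these data known. Named beyond the members were list genes past the calls and the 3 genes most like a member, by Pearson's r of log2 levels. The contrast of Ad IIc with Ad I was added after seeing the data. Labelled nuclei held 616557 and 2276808 UMIs. Against the nuclear-encoded UMIs of a label, 3 UMIs correspond to 7.47 CPM in thymic Ad IIa and 111 CPM in thymic Ad IIb. The code was tested on simulated data. Tools were Python 3.11.15, numpy 2.4.6, scipy 1.17.1, pandas 2.3.3, matplotlib 3.10.9, R 4.3.3 and edgeR 4.0.16, used for scaling only. Alternatives changed the scaling, depth, pseudocount, minimum, fold and labels used.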

Additional observations from a re-analysis of the deposited data

Results flagged for a closer look

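The Lpl log2 ratio of Ad IIc over Ad I lay on opposite sides in the 2 tissues. It was -1.93 in thymus, from 37 UMIs in 34 Ad IIc nuclei, and 1.5 in epigonadal fat, from 2658 UMIs in 658 nuclei. Each side was 1 library, and the difference between them was not tested. The summed endothelial markers of Ad IIc were 9528 CPM in thymus and 426 CPM in epigonadal fat, and their part in the Lpl difference was not tested.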

How the results depend on the processing

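Of 589 member log2 ratios recomputed under the alternatives, 497 stayed within counting error or kept their call, 90 moved and 2 called ratios reversed; of 158 counts of members, 132 stayed within 1.5 times. In nuclei without the other class's markers, Fabp4 in epigonadal endothelial-like over Ad I nuclei was -0.45, and Acsl1 in thymic over epigonadal endothelial-like nuclei was 0.38. A sign opposite to the reported one occurred 48 times, and 2 times with both intervals on 1 side of 0: that Fabp4 ratio, and the uncalled Fabp4 ratio of thymic over epigonadal endothelial-like nuclei, -0.75 as reported and 0.91 in those nuclei. The cause of these and of the changes below was not tested.

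Members called higher in thymic endothelial-like nuclei, 5 as reported, were 3 with nuclei of at least 1000 UMIs, 2 after thinning and 2 with Ad IIb alone. In epigonadal fat, 6 as reported, there was 1 in nuclei without the other class's markers, where Gpihbp1, Meox2, Tcf15 and Fabp5 had under 10 UMIs and had no call.

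For thymus over epigonadal Ad I nuclei, 1 lower as reported, there were 2 with median-of-ratios scaling, 0 at 1000 UMIs, 2 by fold alone and 0 in Ad Ia alone. Higher there, 0 as reported, were 2 with equal weight per nucleus, 1 after thinning, 1 by fold alone and 1 at 1.5-fold.

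For thymus over epigonadal endothelial-like nuclei, 2 lower as reported, there were 1 at 1000 UMIs, 0 after thinning, 1 with a pseudocount of 5, 1 with a minimum of 50 UMIs, 4 at 1.5-fold, 1 with Ad IIa alone, 0 with Ad IIb alone and 0 without the other class's markers (Slc27a1 was under 10 UMIs there), where 1 (Gpihbp1) was higher instead of 0.

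In chromatin, 1 higher as reported, there were 0 within 1 kb of gene ends, 0 with a minimum of 50 fragments, 2 for joint cluster 4 over 3, and 0 for cluster 0 over 1 and for cluster 0 over 3.

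TMM moved the median of all genes to 0.23 in epigonadal endothelial-like over Ad I nuclei and to -0.26 in thymus over epigonadal Ad I nuclei, with 2.62% of genes called higher and 7.41% lower in the latter. No paired analysis was possible because each group was 1 library, and none has a replicate to leave out. Subtraction of the unlabelled profile was not run for the comparisons of thymus with epigonadal fat. Thymic Ad IIb (16 nuclei) and Ad Ib (median 442 UMIs) limit the depth.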
